A study of Mus musculus with 4 samples.

Results

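The receptors for the colony-stimulating factors and for the related cytokines IL-3 and IL-6 were followed in *in vitro* MDSCs, with and without G-CSF in the culture. The group held 8 of the 24346 genes in the tables and was chosen by name: *Csf3r*, *Csf2ra*, *Csf2rb*, *Csf2rb2*, *Il3ra*, *Csf1r*, *Il6ra* and *Il6st*. *In vitro* MDSCs are immature myeloid cells grown from the bone marrow (BM). BM cells of female C57BL/6J mice, 6 to 8 weeks old, were cultured for 4 days with 40 ng/ml GM-CSF, which every culture received. G-CSF at 5 ng/ml was added to 2 cultures (G-CSF) and left out of 2 (Control). No sort is stated for the cells that were sequenced, so the libraries are taken here as whole cultures, in which fewer cells of a type cannot be told apart from less RNA per cell. The values are FPKM, which is reads scaled to transcript length and library size, and they can be compared between genes.

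Receptors of this group have no enzyme of their own, apart from the M-CSF receptor, which is a tyrosine kinase. The others are type I cytokine receptors that signal through JAK kinases, which are not bound to every chain. The G-CSF receptor, encoded by *Csf3r*, pairs with itself. The receptors for GM-CSF and IL-3 each join a specific alpha chain (*Csf2ra*, *Il3ra*) to a beta chain that passes the signal on. Mice have a pair of such beta chains, *Csf2rb*, which GM-CSF, IL-3 and IL-5 share, and *Csf2rb2*, which serves IL-3 alone. IL-6 binds *Il6ra* and then signals through *Il6st*, the gp130 chain used by a whole family of cytokines. In the BM, G-CSF drives neutrophil production and M-CSF drives monocytes and macrophages, while GM-CSF acts on both branches.

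The libraries were of like depth, at 12450000 to 15700000 mapped reads as estimated from low FPKM values. Each receptor gene had at least 121 estimated reads in every library. The label for RNA extraction names liver as the source, but *Alb*, *Apoa1*, *Ttr*, *Cyp3a11* and *Tat*, 5 of 7 hepatocyte markers, were listed at 0 in all 4 libraries, and the summed level of the 7 was at most 1.51 FPKM. *S100a8* and *Ly6c2*, markers of myeloid cells, had their lowest values at 25565 and 999.6 FPKM. The paper calls them 2 biological replicates, but nothing in the labels says whether they came from separate mice. The p-values from limma thus measure the spread between these samples, which that fit takes in part from all genes tested.

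*Csf2rb* and *Csf2rb2* are near copies, and their sequences show how far 75-base reads can tell them apart. Both genes lie on chromosome 15 of GRCm38, *Csf2rb* on the plus strand (78325752 to 78353847) and *Csf2rb2* on the minus strand (78282507 to 78305721). The longest coding sequences in GENCODE M21, of 2688 and 2634 bases, are identical at 95.2% of the aligned bases. The longest stretch without a difference covers 242 coding bases in the last exon of each gene. It lies at chr15:78348577-78348818 in *Csf2rb* (exon 15) and at chr15:78284630-78284871 in *Csf2rb2* (exon 14), and a read from it fits both genes.
Csf2rb and Csf2rb2: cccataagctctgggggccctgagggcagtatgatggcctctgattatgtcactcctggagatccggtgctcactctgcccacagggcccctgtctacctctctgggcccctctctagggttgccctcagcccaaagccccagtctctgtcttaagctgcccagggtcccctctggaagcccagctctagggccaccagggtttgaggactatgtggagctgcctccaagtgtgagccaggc
The 75 aligned coding bases with the most differences, 14 in all, are shown next with the differing bases in capitals. They lie at chr15:78338905-78338979 in *Csf2rb* (exon 5) and at chr15:78294352-78294426 in *Csf2rb2* (exon 4).
Csf2rb: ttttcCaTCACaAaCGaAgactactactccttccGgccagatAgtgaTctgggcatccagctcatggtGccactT
Csf2rb2: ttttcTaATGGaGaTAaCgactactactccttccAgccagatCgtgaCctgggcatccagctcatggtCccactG
Over all annotated transcripts, 7.2% of the 75-base windows of *Csf2rb* and 10.6% of those of *Csf2rb2* occur without a difference in the other gene. Within the coding sequences alone the shares were 15.8% and 16.1%. The division of reads between the genes is thus uncertain, and reads with a mismatch were not counted in these shares. For *Csf3r* the share of windows found in other genes was 2.9%, and for the other 5 receptor genes it was 0.0%.

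In each of the 4 libraries the receptor genes stood in the same order of FPKM level: *Csf2rb*, *Csf1r*, *Csf2rb2*, *Csf2ra*, *Csf3r*, *Il6ra*, *Il6st* and *Il3ra*. *Csf2rb*, the common beta chain, was higher than 98.5% of the genes tested, and *Csf1r*, *Csf2rb2* and *Csf2ra* were higher than 95.7%, 95.4% and 93.8%. *Csf3r* was higher than 81.7% and *Il3ra*, the lowest of the group, than 41.2%. No neighbours in this order overlapped within Control or within G-CSF. The closest were *Csf1r* and *Csf2rb2*, whose ratio lay between 1.06 and 1.13 in the 4 libraries. *Il6ra* and *Il6st*, the chains of the IL-6 receptor, had a ratio between 1.14 and 1.51.

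**Figure D1:**
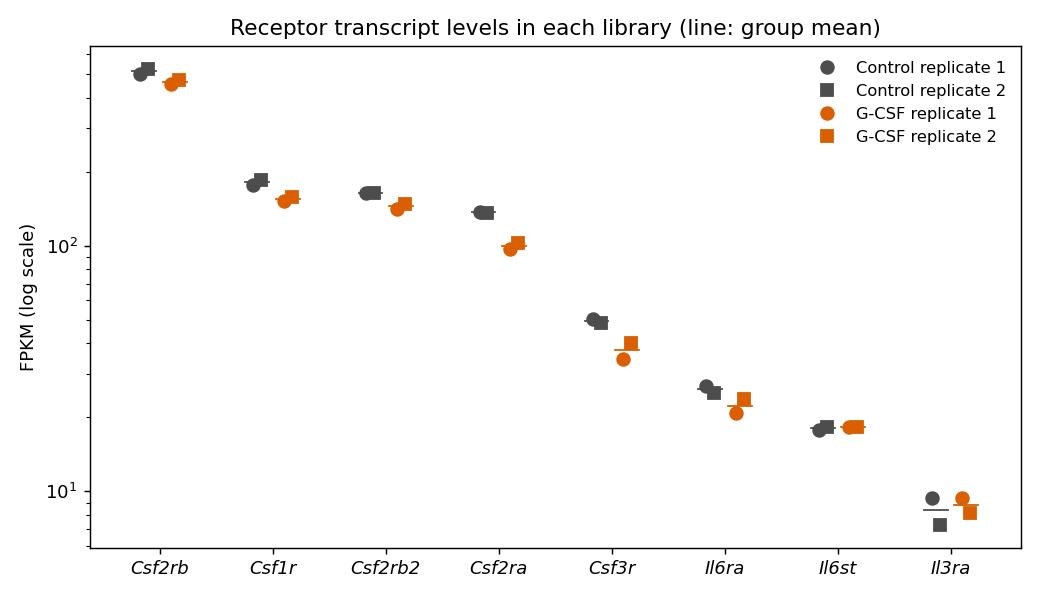
FPKM (log axis) of the 8 receptor genes in each of the 4 libraries, with Control in grey, G-CSF in orange and a line at each group mean. The order of the genes is the same in every library, and in 6 genes both G-CSF values lie below both Control values.

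The comparison of G-CSF with Control asked how the receptors were expressed once G-CSF was added to the GM-CSF culture. Of the 8 receptor genes, 4 fell (*Csf2ra*, *Csf3r*, *Csf1r* and *Csf2rb2*), none rose, and 4 did not pass the test. The falls were small, from 11.9% to 26.9%. The test was limma on log2(FPKM + 0.1) over 11920 genes, with Benjamini-Hochberg adjustment and a call at an adjusted p under 0.05. Among all genes tested, 24.3% were called by the same rule, 11.6% lower and 12.7% higher with G-CSF. The median log2 fold change was -0.20 over the 8 receptor genes and 0.002 over all genes tested. No receptor gene reached the fold change of 2 that the study required, a threshold which 1.43% of all genes tested passed together with the adjusted p. In 6 of the 8 genes both G-CSF values lay below both Control values, as in 32.6% of all genes tested, and 66.3% of all genes had groups apart in either direction. When limma was run with a single prior variance for all genes in place of a trend with expression, 0 of the 8 passed the same threshold, while 4 of them were under 0.05 before adjustment. That setting lowered the number of calls among all genes from 2893 to 200.

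**Figure D2:**
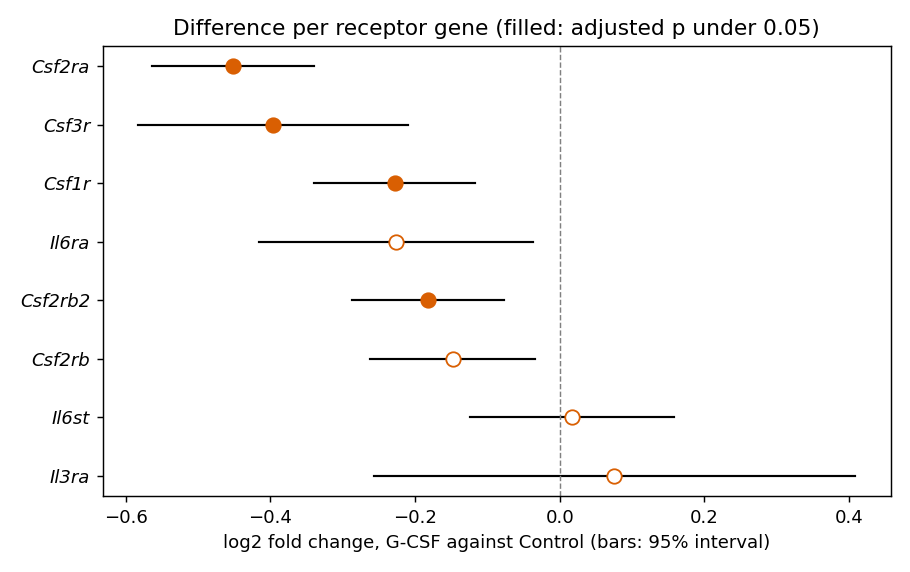
Log2 fold change of each receptor gene between G-CSF and Control, with its 95% interval from limma. The filled points, at -0.45 (*Csf2ra*), -0.40 (*Csf3r*), -0.23 (*Csf1r*) and -0.18 (*Csf2rb2*), passed an adjusted p of 0.05, and the intervals of *Il6st* and *Il3ra* span 0.

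The G-CSF receptor gene *Csf3r*, on chromosome 4 (126024550 to 126044440), encodes the receptor for the cytokine that was added. It stood at 50.2 and 48.3 FPKM in Control and at 34.6 and 40.3 FPKM with G-CSF. The groups did not overlap, and the G-CSF replicates lay further apart than the Control replicates. The means were 49.2 ± 1.36 and 37.5 ± 4.04 FPKM (SD, n = 2 each). The log2 fold change of *Csf3r* was thus -0.40 with a standard error of 0.0777, and limma gave an adjusted p of 0.0157. These values rest on 2092, 2140, 1341 and 1970 estimated reads. Leaving out any of the 4 libraries gave a change of -0.51 to -0.29 on the log2 scale, and the adjusted p stayed under 0.05. It was 0.0522 without a filter on low values and 0.0835 without the trend, in a range of 0.00369 to 0.0835 over the alternatives.

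*Csf2ra*, the alpha chain that binds GM-CSF, had the largest fall of the group on the log2 scale, except without G-CSF replicate 2, where *Csf3r* was at -0.51 and *Csf2ra* at -0.49. It lies on chromosome 19 (61223957 to 61228429). Its level was 137 and 136 FPKM in Control and 96.9 and 103 FPKM with G-CSF, and the groups did not overlap. The means were 137 ± 0.749 and 99.8 ± 4.08 FPKM (SD, n = 2 each), so *Csf2ra* fell by 0.45 on the log2 scale, with a standard error of 0.0466 and an adjusted p of 0.00358 in limma. It ranked 132 by p among the genes tested. The call was kept without any 1 of the libraries (log2 fold change -0.49 to -0.41) and was lost without the trend (adjusted p = 0.0536, in a range of 0.000421 to 0.0536 over the alternatives).

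The estimated changes of the beta chains were smaller than that of the alpha chain. *Csf2rb* stood at 502 and 525 FPKM in Control and at 456 and 470 FPKM with G-CSF. The groups did not overlap, but the log2 fold change of -0.15 (standard error 0.0474, 95% interval -0.26 to -0.035) did not pass the test (adjusted p = 0.0646 from limma). *Csf2rb* passed under 2 of 13 alternatives, among them voom on estimated reads (adjusted p = 0.0385), in a range of 0.0241 to 0.245. *Csf2rb2* stood at 164 FPKM in both Control libraries and at 142 and 148 FPKM with G-CSF. It fell by 0.18 on the log2 scale, with a standard error of 0.0439 and an adjusted p of 0.0286 in limma. Both genes had a smaller SD than difference between means, at 16.3 and 10.4 FPKM for *Csf2rb* and 0.0636 and 4.63 FPKM for *Csf2rb2* (n = 2 each). The call of *Csf2rb2* was lost without Control replicate 1 (adjusted p = 0.0972), Control replicate 2 (0.0882) or G-CSF replicate 1 (0.128), without the filter (0.0576) and without the trend (0.122). Its adjusted p ranged from 0.0121 to 0.128 over the alternatives. When the FPKM of the near copies were added and tested as 1 gene, the sum had a log2 fold change of -0.16 and an adjusted p of 0.0563 in limma.

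*Il3ra*, the alpha chain that binds IL-3, lies on chromosome 14 (14346275 to 14356011). It stood at 9.44 and 7.31 FPKM in Control and at 9.41 and 8.15 FPKM with G-CSF. The groups overlapped, and the Control replicates differed by more than the group means. The log2 fold change was 0.075 (standard error 0.139, 95% interval -0.26 to 0.41, adjusted p = 0.723 from limma) for *Il3ra*, and its sign turned when Control replicate 2 or G-CSF replicate 1 was left out. The interval ends above the estimates of *Csf3r* and *Csf2ra*, at -0.40 and -0.45, and the difference between the genes was not tested. An antisense gene, *Gm48860*, overlaps *Il3ra*, and the strand setting of the counting is not given in the sources used here.

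*Csf1r*, on chromosome 18, encodes the receptor for M-CSF, a growth and survival factor of monocytes and macrophages. The end of *Csf1r* overlaps *Hmgxb3*, a gene on the opposite strand. It stood at 177 and 185 FPKM in Control and at 152 and 158 FPKM with G-CSF. The groups did not overlap, with means of 181 ± 5.70 and 155 ± 4.33 FPKM (SD, n = 2 each). *Csf1r* fell by 0.23 on the log2 scale, with a standard error of 0.0465 and an adjusted p of 0.0178 in limma. The call was lost without Control replicate 2 (adjusted p = 0.0707) or G-CSF replicate 1 (0.0727) and without the trend (0.0955), in a range of 0.00398 to 0.0955 over the alternatives.

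*Il6ra*, on chromosome 3 (89864059 to 89913196), encodes the chain that binds IL-6. It stood at 27.0 and 25.2 FPKM in Control and at 20.8 and 23.8 FPKM with G-CSF. The groups did not overlap, but the log2 fold change of -0.23 (standard error 0.079, 95% interval -0.42 to -0.037) did not pass the test (adjusted p = 0.0811 from limma). *Il6ra* passed under 3 of 13 alternatives, among them voom on estimated reads (adjusted p = 0.0451) and the fit without G-CSF replicate 2 (0.0381), in a range of 0.0381 to 0.306. *Il6st*, on chromosome 13 (112464070 to 112510086), encodes the gp130 chain. Its level was 17.8 and 18.3 FPKM in Control and 18.2 and 18.3 FPKM with G-CSF. These 4 values spanned the narrowest range of the group, and the log2 fold change was 0.017 (standard error 0.0588, 95% interval -0.12 to 0.16, adjusted p = 0.857 from limma). An antisense gene, *Gm42809*, overlaps the start of *Il6ra*.

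Ratios between receptor genes within a library do not depend on how libraries are scaled, and 7 were followed. The ratio of *Csf2ra* to *Csf2rb*, the chains of the GM-CSF receptor, was 0.273 and 0.259 in Control against 0.213 and 0.218 with G-CSF. The groups did not overlap, and the mean log2 ratio differed by -0.30 (G-CSF minus Control), with SDs of 0.0539 and 0.0265 (n = 2 each, exact permutation test, two-sided p = 0.33). With 2 libraries against 2, 0.33 is the smallest p this test can give. The ratio of *Csf2rb2* to *Csf2rb* overlapped between the groups, at 0.328 and 0.313 in Control against 0.311 and 0.315 with G-CSF. The ratio of *Csf3r* to *Csf2ra* also overlapped, at 0.366 and 0.355 against 0.357 and 0.393.

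The ratio of *Csf3r* to *Csf1r*, a neutrophil branch receptor set against a monocyte branch receptor, was 0.283 and 0.261 in Control against 0.228 and 0.256 with G-CSF. The groups of this ratio lay apart, with G-CSF replicate 2 just under the lower Control value. The ratio of *Il6ra* to *Il6st* was 1.51 and 1.38 in Control against 1.14 and 1.30 with G-CSF, and that of *Csf1r* to *Csf2ra* was 1.29 and 1.36 against 1.56 and 1.54. The ratio of *Il3ra* to *Csf2rb2*, the chains of the IL-3 receptor, overlapped at 0.0574 and 0.0445 against 0.0664 and 0.055. None of the 7 ratios could pass a p of 0.05 in this design.

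**Figure D3:**
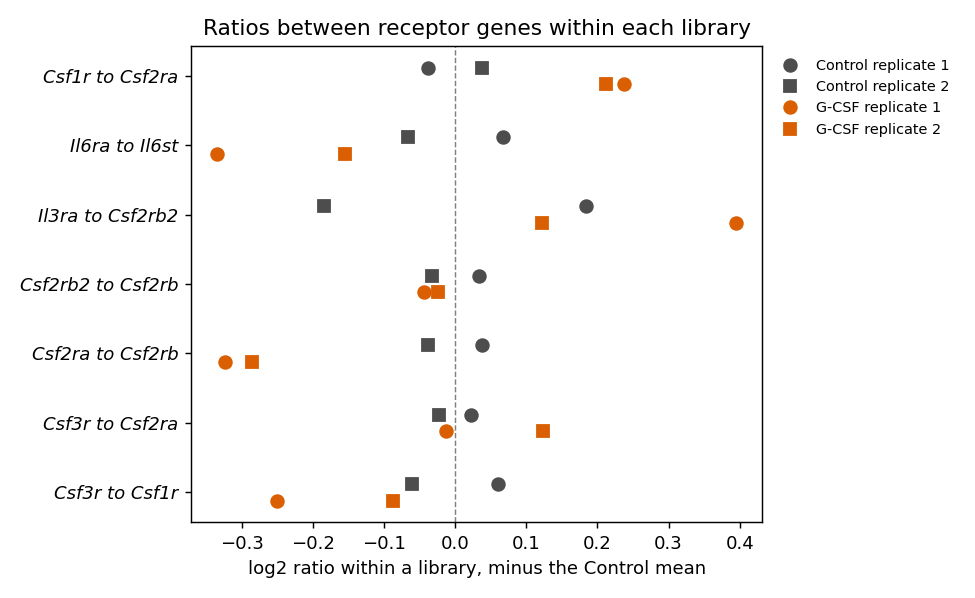
Log2 ratio of each pair of receptor genes within each library, minus the mean of Control. *Csf2ra* to *Csf2rb* has a G-CSF mean at -0.30, while *Csf2rb2* to *Csf2rb* and *Csf3r* to *Csf2ra* overlap between the groups.

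Markers of cell types changed in the same libraries, where 24.3% of all genes tested were called, 11.6% lower and 12.7% higher. Of 11 genes that mark the neutrophil lineage, 8 fell, among them *Camp*, an antimicrobial granule peptide (log2 fold change -1.81), *Ltf*, lactoferrin (-1.32), *Retnlg* (-1.81) and *Lcn2* (-0.57). The other 3 did not pass the test. The summed level of the 11 was 70085 to 80557 FPKM in Control and 53752 to 54074 FPKM with G-CSF, and none was at 0 in all libraries. Most of this sum came from *S100a8* and *S100a9*. *S100a8* stood at 35613 and 30633 FPKM in Control and at 25812 and 25565 FPKM with G-CSF, and did not pass (adjusted p = 0.0786 from limma). *S100a9* stood at 31959 and 27310 FPKM against 20506 and 20521 FPKM, and fell (adjusted p = 0.0256). All 5 markers of neutrophil precursors rose (*Mpo*, *Ms4a3*, *Ctsg*, *Prtn3* and *Elane*, by 0.99 to 1.52 on the log2 scale), and their sum went from 838 to 965 FPKM in Control to 2111 to 2246 FPKM with G-CSF. *Csf3r* is known to rise as neutrophils mature. Its value is given here beside these lists, and the part of cell composition in its fall was not tested.

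Among the markers of cells that use the M-CSF receptor, 6 of 8 macrophage genes fell, with *Cd68*, *Adgre1*, *Mertk* and *Mrc1* at -0.20, -0.34, -0.52 and -0.49 on the log2 scale. Their sum was 808 to 824 FPKM in Control and 631 to 694 FPKM with G-CSF. Of 7 monocyte genes, *F13a1* rose (0.32), *Fcgr1* fell (-0.20) and 5 did not pass, with a sum of 1354 to 1386 FPKM against 1247 to 1320 FPKM. Most of that sum was *Ly6c2*, at 1105 and 1148 FPKM in Control and 999.6 and 1066 FPKM with G-CSF. *Ly6c2* did not pass (adjusted p = 0.145 from limma). The median log2 fold change of the 7 was 0.0098, with 4 genes higher and 3 lower. Of 8 dendritic cell genes, 4 fell, namely *H2-Ab1* and *Cd74* of the antigen presentation pathway (-1.09 and -0.85), *Cd209a* (-1.55) and *Itgax* (-0.46), and their sum was 2273 to 2658 FPKM against 1212 to 1505 FPKM. No gene of these 3 lists was at 0 in all libraries. By the paper's flow cytometry of such cultures, the shares of macrophages and dendritic cells did not change with G-CSF. The share of monocytic MDSCs rose there and that of polymorphonuclear MDSCs fell. The part of cell composition in the falls of *Csf1r* and *Csf2ra* was not tested.

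Markers of rarer cells changed as well. Of 6 mast cell and basophil markers tested, 4 fell (*Mcpt8*, *Kit*, *Cpa3* and *Fcer1a*), and the sum of all 7 listed was 94.5 to 96.1 FPKM in Control and 61.1 to 65.7 FPKM with G-CSF. Of 3 eosinophil markers tested, *Prg2* and *Epx* fell, and the sum of all 5 listed was 261 to 339 FPKM against 162 to 208 FPKM. These cells use the IL-3 and IL-5 receptors, in which the beta chains take part, and *Il5ra*, the IL-5 alpha chain, stood at 0.253 FPKM or less in every library. Of 4 progenitor markers *Myb* rose and *Kit* fell. Of the lymphoid and erythroid markers, 2 of 7 were tested and *Cd79a* fell (-0.98).

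Few of the cytokines that bind these receptors were expressed in the cultures themselves. *Csf2* (GM-CSF) and *Il3* were listed at 0 in all 4 libraries, and *Csf3* (G-CSF) was listed at 0 in 3 and at 0.183 FPKM in Control replicate 2. *Il6* stood at 0.934 and 1.60 FPKM in Control and at 1.74 and 1.46 FPKM with G-CSF, and the groups overlapped. The list of 18 ligand genes also held *Il4*, *Il13*, *Kitl* and *Flt3l*, which bind other receptors. Of the 18, 8 were tested (*Flt3l* among them), 2 fell and none rose, which is close to the 24.3% called among all genes tested. Their median log2 fold change was 0.015. *Csf1*, which encodes M-CSF, was at 25.7 and 20.9 FPKM in Control and at 18.1 and 17.2 FPKM with G-CSF (-0.39 on the log2 scale, adjusted p = 0.0368 from limma). *Osm*, an IL-6 family cytokine, was at 19.3 and 19.7 FPKM against 14.5 and 15.2 FPKM (-0.39 on the log2 scale, adjusted p = 0.00913).

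Other cytokine and growth factor receptors of myeloid cells were set beside the group. Of 33 genes 27 were tested, 8 fell and none rose, where 24.3% of all genes tested were called, 11.6% lower and 12.7% higher. The median log2 fold change of the 27 was -0.18. The 4 with the smallest p were *Kit*, the stem cell factor receptor (-0.70), *Crlf2*, a chain of the TSLP receptor (-0.63), *Il17ra*, the IL-17 receptor (-0.39), and *Il12rb2*, a chain of the IL-12 receptor (-0.44). Among other partners of gp130, *Il11ra1*, the IL-11 receptor, stood at 7.06 and 7.44 FPKM in Control and at 7.70 and 7.42 FPKM with G-CSF, and did not pass (adjusted p = 0.645 from limma). *Lifr* and *Il27ra* stood at 0.76 and 0.888 FPKM or less, and *Osmr* and *Cntfr* were listed at 0 in every library.

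Of 40 genes that signal below these receptors, all were tested, 17 fell, 2 rose and 21 did not pass. By the same rule 24.3% of all genes tested were called, 11.6% lower and 12.7% higher. The median log2 fold change of the 40 was -0.16. *Jak2*, the kinase bound to the GM-CSF and IL-3 receptors, stood at 71.8 and 65.1 FPKM in Control and at 53.2 and 51.6 FPKM with G-CSF (log2 fold change -0.38, adjusted p = 0.00843 from limma). *Jak3*, which partners the common gamma chain, rose from 7.23 and 5.996 FPKM to 13.8 and 12.4 FPKM (log2 fold change 0.98, adjusted p = 0.00445). *Irf5* (-0.38) and *Dok2*, an adaptor that damps tyrosine kinase signals (-0.37), were among the 4 smallest p-values.

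Feedback genes that cytokines switch on were followed by name. *Cish*, a target of STAT5 that damps cytokine receptors, fell from 132 and 131 FPKM to 102 and 108 FPKM (log2 fold change -0.32, adjusted p = 0.00696 from limma), and *Socs1* fell from 41.7 and 38.5 to 28.7 and 29.3 FPKM (-0.47, adjusted p = 0.00514). *Socs3*, which acts on the G-CSF receptor and gp130, stood at 25.7 and 26.2 FPKM in Control and at 23.3 and 28.7 FPKM with G-CSF, and the groups overlapped (-0.0036 on the log2 scale, 95% interval -0.24 to 0.23, adjusted p = 0.983). *Stat3* (0.11, adjusted p = 0.203), *Stat5a* (-0.11, adjusted p = 0.363) and *Stat5b* (-0.11, adjusted p = 0.303) did not pass. Whether the genes of this paragraph differ from each other in their change was not tested.

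Of 15 genes of receptor shedding and trafficking that were tested, 3 rose and 1 fell, and the median log2 fold change was -0.052. These 4 of 15 are close to the 24.3% called among all genes tested. Those that rose were the neutrophil serine proteases *Ctsg* (1.25), *Prtn3* (1.42) and *Elane* (0.99), which can cut cytokine receptors and are also the precursor markers named above. *Rab11a*, which takes part in recycling of receptors to the cell surface, fell by 0.18 on the log2 scale (adjusted p = 0.0425 from limma).

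**Figure D4:**
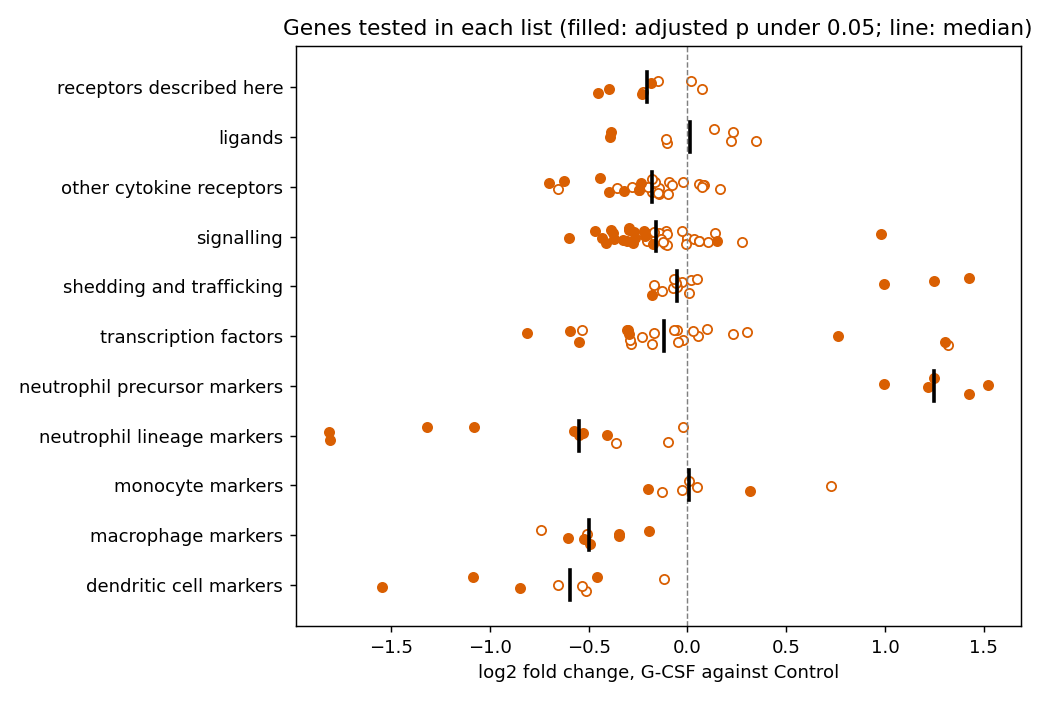
Log2 fold change between G-CSF and Control of each tested gene in the receptor group, the lists of related genes and some marker lists. The marker lists shown are those of neutrophil precursors, the neutrophil lineage, monocytes, macrophages and dendritic cells. Filled points have an adjusted p under 0.05, and a line marks the median. The medians of the receptors (-0.20), the other cytokine receptors (-0.18) and the signalling genes (-0.16) lie close together, while the precursor markers (1.25) and neutrophil lineage markers (-0.55) lie on opposite sides.

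Promoters of the receptor genes were read as a description, without regard to which genes fell. RefSeq promoter windows of GRCm38.p6, from 250 bases before to 50 after the start of the gene, were found for 6 of the 8 genes, all but *Csf1r* and *Csf2rb*. They were searched on both strands for GAGGAA (read as TTCCTC on the other strand), the core bound by the myeloid factor PU.1, for TTCNNNGAA (STAT) and for TTGCNNAA (C/EBP). The PU.1 letters occurred in 4 of the 6 windows, those of *Csf2ra*, *Csf2rb2*, *Csf3r* and *Il6ra*, against 28.3% of all 32851 windows. Of these, *Il6ra* did not pass the test of G-CSF against Control, and *Csf1r*, which fell, had no window. The STAT letters occurred in *Csf2rb2* alone (8.3% of all windows) and the C/EBP letters in *Il3ra* alone (10.8%), and no match shared bases with a match of another motif. Stretches before the RefSeq start site are shown with the matches in capitals. They lie at chr19:61228419-61228478 (minus strand), chr15:78305722-78305901 (minus), chr4:126024561-126024590 (plus) and chr3:89913197-89913306 (minus).
Csf2ra: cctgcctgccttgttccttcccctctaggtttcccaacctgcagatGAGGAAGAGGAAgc
Csf2rb2: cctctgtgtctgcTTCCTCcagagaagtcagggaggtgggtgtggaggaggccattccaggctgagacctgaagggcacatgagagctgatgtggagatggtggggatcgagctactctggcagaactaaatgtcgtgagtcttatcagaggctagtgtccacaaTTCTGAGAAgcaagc
Csf3r: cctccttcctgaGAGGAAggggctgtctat
Il6ra: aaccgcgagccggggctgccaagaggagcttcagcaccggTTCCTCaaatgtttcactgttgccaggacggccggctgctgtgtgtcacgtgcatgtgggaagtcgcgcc
The stretch of *Csf2ra* reaches into the gene as GENCODE M21 annotates it, and that of *Csf3r* lies wholly within the gene. RefSeq places these starts further in. The C/EBP letters of *Il3ra*, which are not shown, also lie within the gene as GENCODE M21 annotates it. The matches describe letters in the windows and were not tied to binding in these cells. *Spi1*, which encodes PU.1, stood at 361 and 372 FPKM in Control and at 306 and 343 FPKM with G-CSF, and this difference of -0.18 on the log2 scale did not pass (adjusted p = 0.0813 from limma). It is named here because of the motif, after its values were seen.

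The genes whose values over the 4 libraries were closest to those of each receptor gene that fell were found by the Euclidean distance of centred log2(FPKM + 0.1). For *Csf3r* they were *Mapk7*, *Zfp119a* and *Tec* (distances 0.0152 to 0.032), and *Mapk7* stood at 20.6 and 19.8 FPKM in Control and at 14.3 and 16.7 FPKM with G-CSF. For *Csf2ra* they were *Antxr2*, *Ccdc125* and *Wdsub1* (0.0166 to 0.0177). For *Csf1r* they were *Mocs1*, *Clcn7* and *Gm5424* (0.00796 to 0.0146), and for *Csf2rb2*, *Ehbp1l1*, *Zfp11* and *Tlr8* (0.0106 to 0.0117). The distances were not tested.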

How the data were processed

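RNA-seq was performed on 2 Control and 2 G-CSF cultures of *in vitro* MDSCs, with stranded mRNA libraries read over 75 bases from a single end. The authors deposited 1 table of FPKM per library, and the values were used as deposited. The unit was inferred from the values, which are not whole but give near-whole reads for many low genes once multiplied by length and depth. The submitters' processing notes name TopHat2 2.0.13, Bowtie2 2.2.3, SAMtools 0.1.19, Cufflinks 2.2.1 and mm10, with no roles, and the annotation is not given in the sources used here.

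Of the 24346 names, 23996 were matched to GENCODE M21 (GRCm38, the same assembly as mm10). Depth was estimated as the value that made the most low FPKM, of genes with a single transcript of 600 to 4000 bases and up to 8 reads, into whole reads, with the length shortened by 210 bases. At that depth 66.3% of 1974 values came within 0.05 of an integer, and since the depth was chosen to raise this share, it is a description and no test. The test took genes that reached 10 such reads in a pair of libraries and 15 summed over the 4, except small RNA genes and genes without a transcript over 200 bases.

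limma 3.58.1 (R 4.3.3; lmFit, eBayes with trend) was run on log2(FPKM + 0.1), two-sided, over all genes tested, with Benjamini-Hochberg adjustment. The study's fold threshold of 2 was given beside the call at an adjusted p under 0.05. A fold change on this scale understates changes of low genes. Of the steps, only the limma fit was tested on simulated data, in which a smaller share of genes changed than was called here. Sequences were aligned with biopython 1.88. The receptor genes, the lists and the tests were chosen with earlier results of these data known.

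The genes named are the 8 receptor genes, up to 5 called genes of each list (the 4 with the smallest p where more were called), *Csf1*, *Csf2*, *Csf3*, *Il3*, *Il6*, *Socs3*, *Cish*, *Stat3*, *Stat5a*, *Stat5b*, *Jak2*, and the 3 genes closest in pattern to each receptor gene called. Marker, ligand and receptor genes at or near 0 are named as well, and so are genes that overlap a receptor gene, apart from microRNA genes. Outside these rules, *Il11ra1* is named as a partner of gp130 and *Spi1* because of the motif. *S100a8*, *S100a9* and *Ly6c2* are named for their high levels, and *Flt3l* as a ligand of another receptor. Alternatives were the replicate number as a block, pseudocounts of 1 and 0.01 FPKM, no filter, at least 1 FPKM in every library, upper-quartile and median-ratio scaling, voom on estimated reads, no trend, the study's fold threshold, each library left out in turn, and the sum of *Csf2rb* and *Csf2rb2*.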

Additional observations from a re-analysis of the deposited data

How the results depend on the processing

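With the replicate number as a block, 6 receptor genes passed in place of 4 (*Csf2rb*, adjusted p = 0.0241, and *Il6ra*, adjusted p = 0.0492, joined them), and 4008 of all genes in place of 2893. Libraries with the same number deviated together (r = 0.26 across genes), but nothing in the labels says what the number marks, and with 2 pairs the check cannot settle it. Calls fell to 2 receptor genes and 1626 of all genes without a filter, to 0 and 200 without the trend in limma (4 receptor genes had an unadjusted p under 0.05), and to 0 and 170 when a fold change over 2 was also required. With voom on estimated reads 6 receptor genes (*Csf2rb* and *Il6ra* joined) and 3373 of all genes passed. Leaving out any 1 library gave 2 to 5 receptor genes (2 without Control replicate 2 or G-CSF replicate 1) and 1590 to 1970 of all genes, where the lone library of a group is assumed to vary like the others. These fits have fewer samples. The log2 fold change of *Il3ra* then ranged from -0.107 to 0.26 (-0.0276 without G-CSF replicate 1) and that of *Il6st* from -0.000792 to 0.035. The other 6 receptor genes kept the sign of their change under all 13 alternatives fitted to each gene. For the no-filter and no-trend fits the cause of the lost calls was not tested. Pseudocounts, scaling and the stricter filter left 4 receptor genes called, and scaling moved the median of all genes by -0.0053 and -0.0012 on the log2 scale. With 2 libraries a group, the precision of each change is limited to the intervals given.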

Other observations

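Transcription factors known to act on these receptor genes were followed as a list of 24, all of which were tested. With G-CSF 2 rose and 6 fell, with a median log2 fold change of -0.12, where 24.3% of all genes tested were called, 12.7% higher and 11.6% lower. *Myb*, a factor of dividing progenitors, stood at 8.13 and 7.16 FPKM in Control and at 19.9 and 18.1 FPKM with G-CSF (log2 fold change 1.30, adjusted p = 0.00137 from limma). *Gfi1*, a repressor needed for neutrophil development, rose from 8.32 and 7.85 to 15.2 and 12.4 FPKM (0.76, adjusted p = 0.00696). *Egr1* (-0.81, adjusted p = 0.0112) and *Egr2* (-0.59, adjusted p = 0.00608 from limma) fell, with *Egr1* at 2.97 FPKM or less in every library. In these 4 genes the groups did not overlap. Of the 24 factors, 16 did not pass.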
